A study of Mus musculus with 8 samples.

Results

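The ER translocation and vesicle coat genes are 49 genes that carry a secretory protein from the ribosome into the endoplasmic reticulum (ER) and on to the Golgi apparatus. They were chosen by gene name, and each name was found once among the 55933 genes of the deposited table. All 49 passed the filter on low values (a mean of at least 0.5 FPKM over the 8 libraries) and were tested among 15143 genes. Levels are in FPKM, that is, fragments per kilobase of a gene after correction for sequencing depth. RNA was sequenced from the mammary epithelium of 4 control and 4 cKO C57BL/6 mice at pregnancy day 14.5, with replicates numbered 1 to 4 in each group and values given in that order. The cKO mice carried K14-rtTA, teto-Cre and Bmpr1a fl/fl and drank doxycycline water, so that rtTA, made under the K14 promoter of basal and myoepithelial cells, switched on Cre to delete Bmpr1a, a receptor for bone morphogenetic proteins. The controls were littermates, which the sample labels call wild type, and whether they also received doxycycline is not given for these libraries. The glands were digested and the cells not sorted, so each library mixes luminal, myoepithelial and other cells of the gland. In such bulk libraries, fewer cells of a type and less RNA per cell cannot be told apart.

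As background, a signal recognition particle binds the signal peptide of a nascent secretory protein and docks the ribosome at the Sec61 channel, with the translocon-associated protein (TRAP) complex beside it. Signal peptidase then removes the signal peptide, and oligosaccharyltransferase adds N-linked glycans. COPII coats bud vesicles from the ER toward the Golgi apparatus, COPI coats return material to the ER, and p24 proteins of the Tmed family help to load both. Caseins and other milk proteins take this route in alveolar luminal cells, whose ER expands as the gland prepares for lactation.

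Each library held between 16123108 and 19896988 reads assigned to genes. The targeted gene Bmpr1a measured 10.6, 11.7, 8.74 and 9.52 FPKM in the controls and 12.02, 12.03, 10.2 and 10.4 FPKM in the cKO libraries (log2 fold change 0.13, SE 0.097, limma adjusted p = 0.560 by Benjamini-Hochberg). This value sums reads over the whole gene and does not separate the floxed part, so it checks no library's label. The labelled tissue was present in every library: the summed level of 7 luminal markers was 5095 to 6623 FPKM in the control libraries and 5038 to 6825 FPKM in the cKO libraries, and that of 8 myoepithelial markers was 1916 to 2595 FPKM in the control libraries and 1730.3 to 2405 FPKM in the cKO libraries. Libraries of replicates 1 and 2 differed from those of replicates 3 and 4 in both groups, so values within these sets are given beside the pooled ones. The sample labels name no such sets, which were read from the values of these same libraries.

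Means of most of the 49 genes were slightly higher in the cKO group, and no single one passed the test after adjustment over all genes. The mean was higher in the cKO group for 47 of 49 genes (95.9%, against 50.2% of all genes tested), and for 37 of 49 with each library scaled to the same FPKM sum (TPM). The 50.2% is for FPKM. With TPM the share of all genes was not computed, and their median log2 fold change was -0.048. With limma on log2(FPKM + 1), 13 members (26.5%) were higher at an unadjusted p under 0.05 and none was lower, against 8.85% of all genes higher and 7.53% lower. In 12 members (24.5%) every cKO library lay above every control library, which held for 6.10% of all genes, and in 0 members did every cKO library lie below, against 4.60% of all genes. With TPM, 3 members lay wholly above, against 3.51% of all genes, and 5 with the milk genes left out of the sum, against 4.43%. After Benjamini-Hochberg adjustment over all genes tested, 0 members passed 0.05 in either direction with limma, against 0.588% of all genes higher and 0.304% lower, and the smallest adjusted p of a member was 0.108. On recovered reads, limma-voom also called 0 members after adjustment, against 0.991% of all genes higher, and 15 at an unadjusted p under 0.05 and higher, against 8.93% of all genes. With the set of replicates (1 and 2 against 3 and 4) as a term in the limma fit, 3 members passed the adjusted threshold, all higher: Sec11c, Ssr4 and Tmed2 (Benjamini-Hochberg adjusted p = 0.0266, 0.0403 and 0.0388). In the same fit the calls over all genes tested rose from 135 to 442, and 1.79% of all genes were called higher. As the sets are unlabelled and were taken from these values, this fit is no independent support for the 3 genes. With limma-voom and the replicate number as a block, 6 members passed, all higher, against 2.67% of all genes: Sec11c, Sec61b, Srp72, Ssr4, Tmed2 and Tmed3 (limma adjusted p = 0.0155, 0.0346, 0.0494, 0.0323, 0.0475 and 0.0398).

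The sizes were small. The median log2 fold change of the 49 genes was 0.12, against 0.00072 over all genes tested, and with TPM it was 0.0618, against -0.048 over all genes. The ratio of mean FPKM between the groups ran from 0.945 for Tmed9 to 1.33 for Sec11c, with a median of 1.09. The 49 genes are moderately to strongly expressed, with means from 4.31 FPKM for Sec24a to 119 FPKM for Ssr2. Among the 7469 genes tested whose means lie in that range, 10.6% were higher at an unadjusted limma p under 0.05, 7.23% had every cKO library above every control library and 51.3% had a higher mean. Within replicates 1 and 2, 47 of the 49 means were higher in the cKO libraries (median log2 difference 0.14), and within replicates 3 and 4, 41 were higher (median 0.096). Over all genes tested, the medians in these sets were -0.00073 and 0.0028. The mean was higher in both sets for 40 of the 49 genes. The share of all genes for which this held was not computed, and the sets are parts of the libraries pooled above. The scaling mattered for the counts: with TPM, 6 members were higher at an unadjusted limma p under 0.05 (5.20% of all genes) and 0 lower, while all genes tested shifted from 1340 higher and 1140 lower to 788 higher and 1656 lower.

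**Figure D1:**
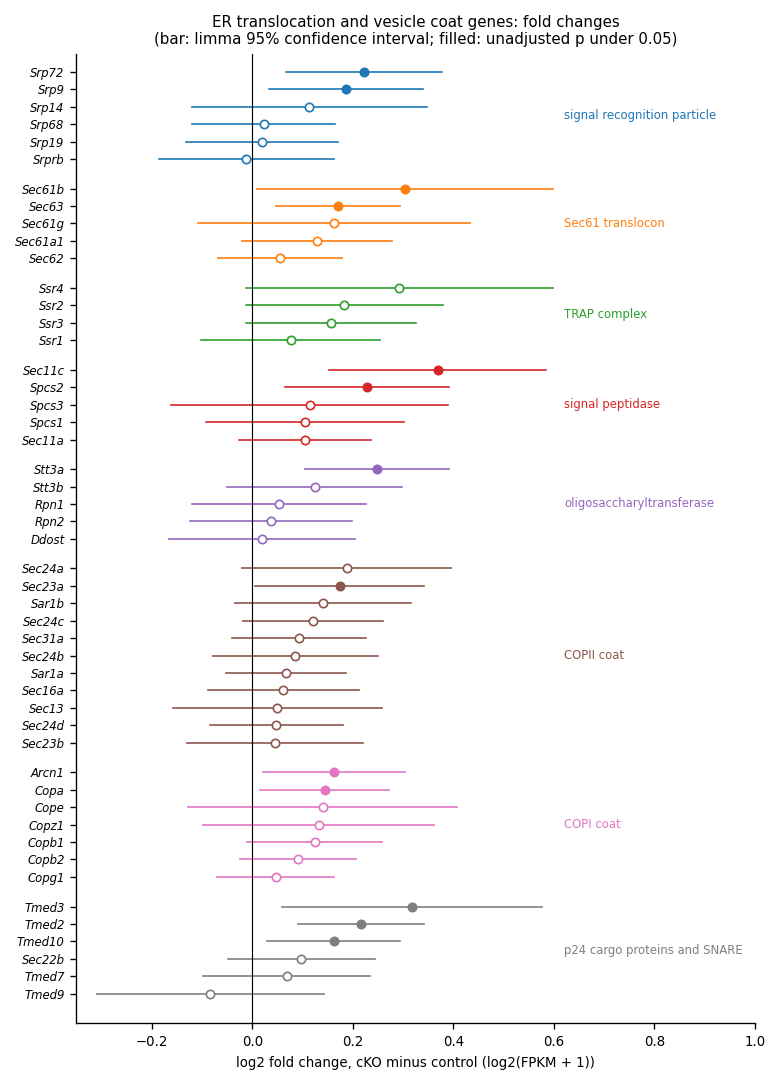
Log2 fold changes of the 49 genes (cKO minus control, log2(FPKM + 1), n = 4 libraries a group), grouped by role and ordered within each group. Bars are limma 95% confidence intervals and filled points have an unadjusted p under 0.05; 47 points lie to the right of 0 (37 if the libraries are scaled to TPM), and the open points of Tmed9 and Srprb lie to its left.

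**Figure D2:**
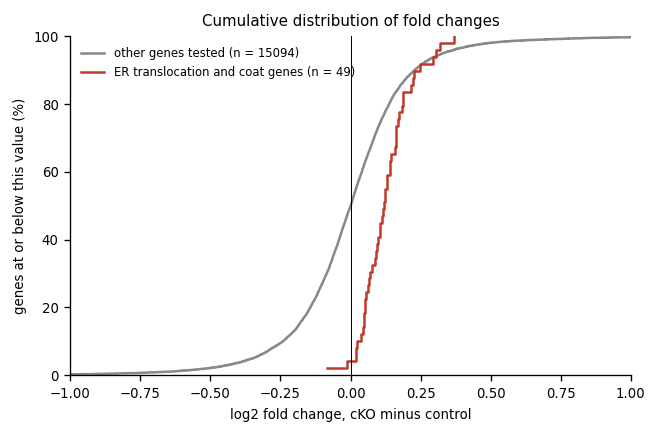
Cumulative distribution of the log2 fold changes of the 49 genes (red) and of the other genes tested (grey), with the percentage of genes at or below each value on the vertical axis. The red curve crosses 50% at 0.12 and the grey one close to 0.

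Summed over all 49 genes, the level was 1395, 1380.0, 1502 and 1521 FPKM in the controls and 1570.3, 1539, 1645 and 1605 FPKM in the cKO libraries. The groups did not overlap, but the lowest cKO library lay only just above the highest control library. As a share of the FPKM sum of the library, the 49 genes made up 0.468, 0.474, 0.462 and 0.467% in the controls and 0.511, 0.498, 0.499 and 0.461% in the cKO libraries. On that scale 3 cKO libraries were above all controls and replicate 4 was below them. The same library held the most milk RNA: the 10 milk genes took 1.40% to 1.86% of the FPKM sum in the controls, 2.99% to 3.53% in cKO replicates 1 to 3 and 4.69% in cKO replicate 4.

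**Figure D3:**
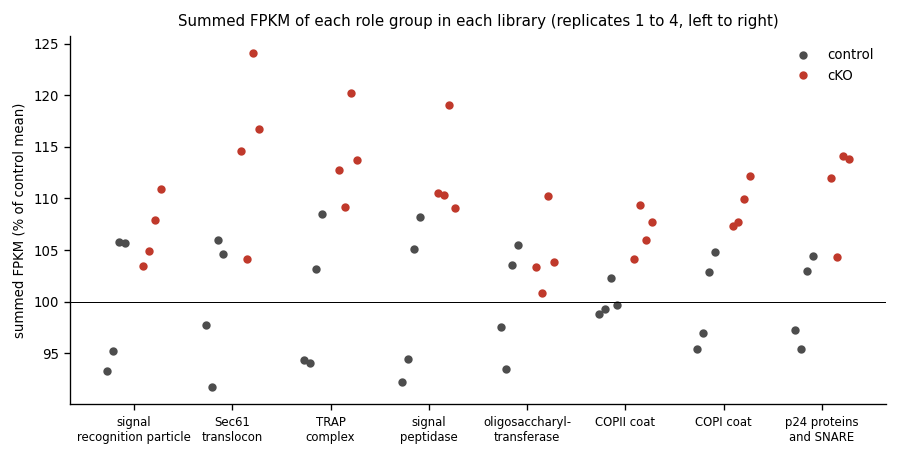
Summed FPKM of each role group in each library, as a percentage of the control mean of that group (grey, control; red, cKO; replicates 1 to 4 from left to right; the vertical axis does not start at 0). In FPKM, the red points lie above the grey ones for the TRAP complex, signal peptidase, the COPII coat and the COPI coat, and mingle with them for the other groups. The highest control and the lowest cKO library were close for the TRAP complex (240.65 and 242.3 FPKM) and signal peptidase (118.42 and 119.38 FPKM). The role sums were not compared as a share of the FPKM sum of the library.

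Of the 6 genes of the signal recognition particle and its receptor, the mean was higher in the cKO group for 5 (3 with TPM, where Srp19 and Srp68 turned). An unadjusted limma p under 0.05 was found for 2, both without overlap, against 8.85% and 6.10% of all genes tested. With TPM the unadjusted limma p was 0.0786 for Srp9 and 0.133 for Srp72. Srp72 (chr5:76974683-76999937, plus strand, GRCm38), which pairs with Srp68 on the RNA of the particle, measured 16.4, 17.6, 15.3 and 16.1 FPKM in the controls and 19.2, 20.8, 17.6 and 19.4 FPKM in the cKO libraries. The highest control only just failed to reach the lowest cKO library. Its log2 fold change was 0.22 (SE 0.068, limma adjusted p = 0.158). Srp9 (chr1:182124737-182132407, plus strand), which with Srp14 slows elongation on the ribosome, measured 10.4, 9.56, 11.1 and 11.6 FPKM in the controls and 12.3, 11.9, 12.5 and 12.3 FPKM in the cKO libraries. All 4 cKO libraries were above all controls (log2 fold change 0.19, SE 0.068, limma adjusted p = 0.219). Their partners had smaller fold changes: Srp68 had a log2 fold change of 0.023 and Srp14 one of 0.11. Srprb, the membrane anchor of the receptor, had 8.91, 8.34, 9.73 and 10.2 FPKM in the controls and 8.52, 9.19, 10.003 and 9.04 FPKM in the cKO libraries. The groups overlapped throughout, and the 95% confidence interval of its log2 difference was -0.19 to 0.16. Srp19, which binds the particle's RNA during assembly, had a log2 fold change of 0.019. Of the 50-base windows of Srp9 and Srprb, 21.3% and 25.4% recur in other annotated genes, so their counts are less certain.

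All 5 genes of the Sec61 translocon had higher means in the cKO libraries, Sec62 not with TPM. Sec63 (chr10:42761496-42832514, plus strand), a partner of the channel that recruits the chaperone BiP, measured 12.7, 12.9, 12.3 and 13.1 FPKM in the controls and 15.04, 14.5, 13.7 and 14.6 FPKM in the cKO libraries, without overlap. The log2 fold change of Sec63 was 0.17 (SE 0.055, limma adjusted p = 0.173). Sec61b, a small subunit of the channel, had the largest difference of the group: 55.7, 52.3, 71.1 and 69.8 FPKM in the controls against 74.4, 64.5, 89.4 and 79.2 FPKM in the cKO libraries. Here cKO replicate 2 lay below control replicates 3 and 4, so the groups overlapped (log2 fold change 0.30, SE 0.13, limma adjusted p = 0.289). Sec62, which acts with Sec63, had 33.2, 34.3, 32.5 and 33.003 FPKM in the controls and 35.5, 34.5, 32.7 and 35.7 FPKM in the cKO libraries, and its log2 interval of -0.068 to 0.18 spans 0. The pore subunit Sec61a1 had a log2 fold change of 0.13 and the third subunit Sec61g one of 0.16, neither with a limma p under 0.05. Other annotated genes share 15.3% of the 50-base windows of Sec61b and 20.5% of those of Sec61g. The copy that shares the most windows with Sec61g, Gm10177, reached 487 reads in its highest library, against 579 to 914 for Sec61g, so its count is less certain. That of Sec61b, Gm10320, reached 26 reads, against 1151 or more for Sec61b.

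None of the 4 TRAP genes had an unadjusted limma p under 0.05, although all 4 means were higher. The summed level did not overlap in FPKM, but only just, at 209 to 241 FPKM in the control libraries and 242 to 267 FPKM in the cKO libraries. It was not compared as a share of the FPKM sum of the library. Ssr4, the delta subunit, measured 32.2, 29.3, 37.3 and 37.6 FPKM in the controls and 36.9, 34.6, 48.02 and 49.5 FPKM in the cKO libraries. Replicates 3 and 4 of both groups were the high ones, and cKO replicates 1 and 2 fell within the control range (log2 fold change 0.29, SE 0.13, limma adjusted p = 0.322). Ssr1, the alpha subunit, had 15.9, 16.2, 16.9 and 17.7 FPKM in the controls and 18.1, 18.9, 18.5 and 15.1 FPKM in the cKO libraries, with cKO replicate 4 the lowest of all 8. Ssr2, the beta subunit and the most abundant of the 49 genes, had a log2 fold change of 0.18 and Ssr3, the gamma subunit, one of 0.16.

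Signal peptidase held the largest fold change of the 49 genes. Sec11c, one of 2 alternative catalytic subunits, measured 7.72, 7.68, 9.47 and 8.99 FPKM in the controls and 11.1, 9.60, 11.99 and 12.2 FPKM in the cKO libraries. Every cKO library was above every control, and the difference was similar within replicates 1 and 2 (0.38) and within replicates 3 and 4 (0.36 on the log2 scale). Its mean was 1.33-fold the control mean (log2 fold change 0.37, SE 0.095, limma adjusted p = 0.111). The other catalytic subunit, Sec11a, had 16.1, 15.4, 17.5 and 16.7 FPKM in the controls and 17.6, 17.2, 18.4 and 17.6 FPKM in the cKO libraries, with a log2 fold change of 0.10 (95% confidence interval -0.027 to 0.24). The accessory subunit Spcs2 (chr7:99837569-99863462, minus strand) measured 23.8, 23.96, 26.7 and 26.9 FPKM in the controls and 28.5, 30.2, 32.6 and 28.1 FPKM in the cKO libraries. Its groups did not overlap either (log2 fold change 0.23, SE 0.072, limma adjusted p = 0.168). Spcs1 and Spcs3 had log2 fold changes of 0.11 and 0.11 with overlap; exons of Spcs1 overlap Glt8d1 on the other strand, and strand-specific counting is not stated.

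Of the 5 oligosaccharyltransferase genes, the catalytic subunit Stt3a had the largest fold change and the 3 shared subunits the smallest. Stt3a (chr9:36729344-36767679, minus strand), which glycosylates chains as they enter the ER, measured 16.3, 16.5, 16.9 and 17.3 FPKM in the controls and 20.4, 21.8, 19.6 and 18.5 FPKM in the cKO libraries. The controls kept within a narrow range and all cKO libraries were above it (log2 fold change 0.25, SE 0.063, limma adjusted p = 0.108). Stt3b, the catalytic subunit that acts on sites missed by Stt3a, had 31.3, 28.6, 29.8 and 29.02 FPKM in the controls and 35.2, 35.3, 30.1 and 29.4 FPKM in the cKO libraries. Only cKO replicates 1 and 2 of Stt3b were above all controls (log2 fold change 0.12, SE 0.077, limma adjusted p = 0.470). Ddost, a shared subunit, had 74.96, 70.4, 82.04 and 87.4 FPKM in the controls and 78.9, 73.6, 83.2 and 82.6 FPKM in the cKO libraries, with a log2 interval of -0.17 to 0.21. The other shared subunits, Rpn1 and Rpn2, had log2 fold changes of 0.053 and 0.037, and with TPM all 3 shared subunits had lower means in the cKO group.

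**Figure D4:**
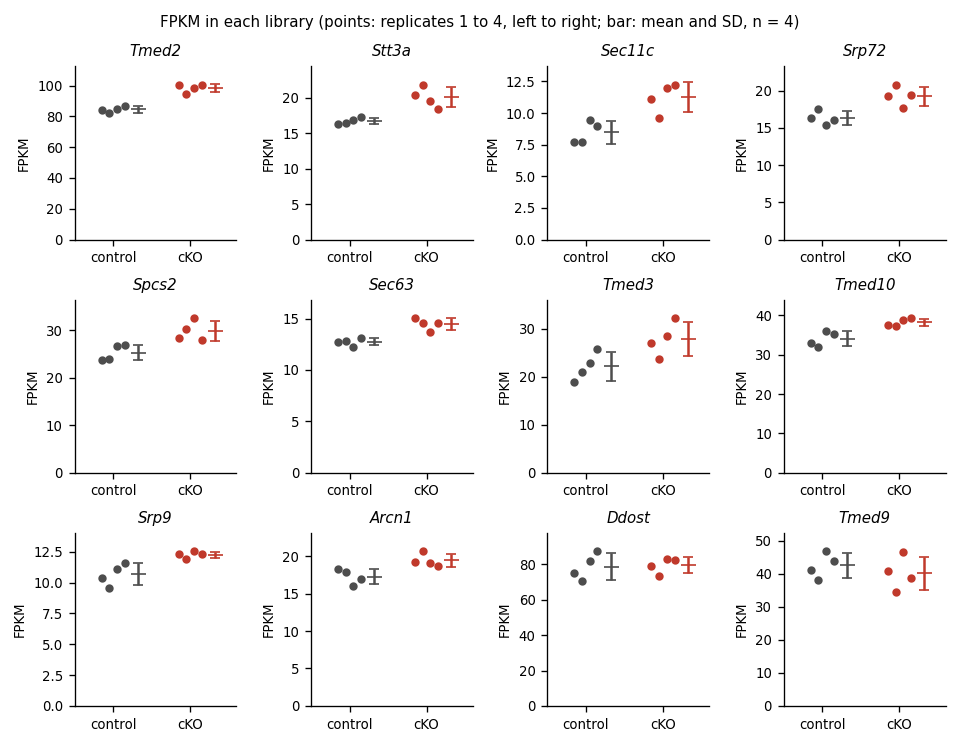
FPKM in each library for the 10 genes with the smallest limma p and for Ddost and Tmed9, the lowest fold changes of the oligosaccharyltransferase and p24 groups. Points are replicates 1 to 4 from left to right and bars are mean and SD (n = 4); Tmed3 is the only one of the 10 whose groups overlap.

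All 11 COPII genes had higher means in the cKO libraries (with TPM all but Sec13, Sec23b and Sec24d), by log2 fold changes from 0.046 to 0.19. An unadjusted limma p under 0.05 was found for 1 of the 11, near the share of all genes tested that were higher at it (8.85%). Sec23a, an inner coat subunit, measured 7.51, 8.13, 6.72 and 7.34 FPKM in the controls and 8.66, 8.84, 7.65 and 8.87 FPKM in the cKO libraries, with cKO replicate 3 inside the control range (log2 fold change 0.17, SE 0.074, limma adjusted p = 0.288). Its paralog Sec23b had 14.4, 13.8, 15.1 and 13.8 FPKM in the controls and 14.8, 15.8, 15.8 and 12.8 FPKM in the cKO libraries, and cKO replicate 4 was the lowest of the 8. The Sec24 subunits, which bind cargo, came next. Sec24a, the least abundant of the 49 genes, had 4.75, 4.04, 3.37 and 3.76 FPKM in the controls and 4.82, 4.66, 4.26 and 4.86 FPKM in the cKO libraries (log2 fold change 0.19, SE 0.092, limma adjusted p = 0.350). Sec24b had 23.1, 22.5, 20.6 and 21.4 FPKM in the controls and 23.1, 25.9, 21.3 and 23.03 FPKM in the cKO libraries. Sec24c measured 19.5, 21.8, 18.8 and 19.1 FPKM in the controls and 21.1, 21.5, 21.7 and 22.03 FPKM in the cKO libraries, where control replicate 2 exceeded 3 of the 4 cKO libraries. Sec24c and Sec24d are closer in sequence to each other than to Sec24a and Sec24b. Sec24d had 13.05, 13.3, 13.9 and 13.05 FPKM in the controls and 14.7, 12.99, 14.03 and 13.5 FPKM in the cKO libraries. All 4 Sec24 genes overlapped between the groups. The GTPase Sar1a, which starts coat assembly, measured 51.1, 48.8, 51.5 and 51.6 FPKM in the controls and 52.9, 54.6, 51.6 and 53.7 FPKM in the cKO libraries. The cKO libraries of Sar1a were all above the controls, the lowest of them by less than 0.1 FPKM, and the log2 fold change was 0.067 (limma adjusted p = 0.580). Sar1b had 41.2, 39.7, 49.03 and 42.2 FPKM in the controls and 45.2, 47.5, 46.2 and 50.8 FPKM in the cKO libraries, with control replicate 3 above 3 of the cKO libraries. The outer coat genes Sec13 and Sec31a and the exit site scaffold Sec16a had log2 fold changes of 0.050, 0.093 and 0.062. The summed COPII level did not overlap in FPKM, at 226 to 234 FPKM in the control libraries and 238 to 249.9 FPKM in the cKO libraries. It was not compared as a share of the FPKM sum of the library.

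The 7 COPI genes were also all higher in mean (with TPM all but Copg1), 2 of them at an unadjusted limma p under 0.05 and 3 without overlap. Over all genes tested, 8.85% were higher at that p and 6.10% had every cKO library above every control. Arcn1 (chr9:44741564-44767845, minus strand), the delta subunit of the coat, measured 18.2, 17.8, 15.9 and 17.001 FPKM in the controls and 19.2, 20.6, 19.1 and 18.7 FPKM in the cKO libraries (log2 fold change 0.16, SE 0.063, limma adjusted p = 0.244). Its cKO libraries lay above every control. Copa, the alpha subunit, had a log2 fold change of 0.14 (SE 0.056, limma adjusted p = 0.250) and no overlap, but its exons overlap Ncstn on the opposite strand, which carries up to 2147 reads. Copb2, the beta-prime subunit, did not overlap either (log2 fold change 0.091, limma adjusted p = 0.422). Copg1, the gamma subunit, had the lowest fold change, with 10.1, 10.7, 10.3 and 10.3 FPKM in the controls and 10.97, 10.8, 10.7 and 10.4 FPKM in the cKO libraries and an interval of -0.069 to 0.16 on the log2 scale. Copb1, Cope and Copz1, the beta, epsilon and zeta subunits, had log2 fold changes of 0.12, 0.14 and 0.13.

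The p24 group contained both the smallest limma p of the 49 genes and the most negative fold change. Tmed2 (chr5:124540695-124550506, plus strand), a p24 protein that forms complexes with Tmed10, measured 83.9, 81.97, 85.1 and 87.1 FPKM in the controls and 100.2, 94.6, 98.3 and 100.5 FPKM in the cKO libraries. The gap between the groups was wider than the spread within either of them (log2 fold change 0.22, SE 0.055, limma adjusted p = 0.108). Copies elsewhere share 27.6% of its 50-base windows, and the copy that shares the most of them, Gm10698, reached 334 reads in its highest library, against 3588 or more for Tmed2. Tmed10 (chr12:85340614-85374847, minus strand) had 33.02, 32.05, 35.98 and 35.3 FPKM in the controls and 37.6, 37.3, 38.7 and 39.3 FPKM in the cKO libraries, again without overlap (log2 fold change 0.16, SE 0.059, limma adjusted p = 0.218). Tmed3 (chr9:89699206-89705068, minus strand) measured 18.9, 21.1, 22.9 and 25.9 FPKM in the controls and 27.02, 23.8, 28.5 and 32.2 FPKM in the cKO libraries. Its difference was larger, but cKO replicate 2 lay below control replicate 4 (log2 fold change 0.32, SE 0.11, limma adjusted p = 0.216). Tmed9 had 41.3, 38.02, 46.8 and 44.03 FPKM in the controls and 40.96, 34.6, 46.5 and 38.7 FPKM in the cKO libraries, so that the groups overlapped around a log2 difference of -0.084 (95% confidence interval -0.31 to 0.14, and -0.155 to -0.0165 for the difference with 1 library left out at a time). Tmed7 and the SNARE Sec22b, which helps vesicles to fuse between ER and Golgi, had log2 fold changes of 0.068 and 0.098.

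The 21 genes not given by library above all had higher means in the cKO libraries (with TPM all but Srp19, Srp68, Rpn1, Rpn2 and Sec13), with log2 fold changes from 0.019 (Srp19) to 0.18 (Ssr2) and a median of 0.11. Of these 21, Copa alone had an unadjusted limma p under 0.05, a smaller share than the 8.85% of all genes tested that were higher at it. Across the 49 genes, the fold change had Pearson's r of -0.060 with log2 gene length and 0.014 with the log2 mean level, as a description over genes of the same 8 libraries. The log2 difference between replicates 3 and 4 and replicates 1 and 2 of a group had r of -0.70 with log2 gene length in the controls and -0.51 in the cKO libraries, and r of 0.68 between the groups. Sec61b, Cope, Ssr4 and Tmed3, named after their values were seen, were among the 6 genes with the largest such difference in both groups.

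Several steps of the route have alternative subunits, and their ratio within a library was compared to ask whether the balance differed between the groups. The log2 ratio of Sec11c to Sec11a was -0.97, -0.92, -0.82 and -0.82 in the controls and -0.62, -0.78, -0.58 and -0.49 in the cKO libraries. Every cKO ratio was above every control ratio, by 0.26 between the means (exact two-sided permutation test, p = 0.0286, the smallest that 4 libraries against 4 allow). Adjusted over the 5 ratios, the exact permutation p was 0.143, and with 4 libraries against 4 a single ratio cannot pass 0.05 after this adjustment, whatever its size. The ratio of Stt3b to Stt3a was 0.79 ± 0.078 in the controls and 0.67 ± 0.068 in the cKO libraries (SD, n = 4, exact permutation p = 0.0857, adjusted p = 0.214), with 1 cKO library inside the control range. The differences of the other ratios were -0.13 for Sec23b to Sec23a, 0.074 for Sar1b to Sar1a and -0.053 for Sec24c and Sec24d to Sec24a and Sec24b, with overlap in each (exact permutation p = 0.343, 0.343 and 0.486).

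**Figure D5:**
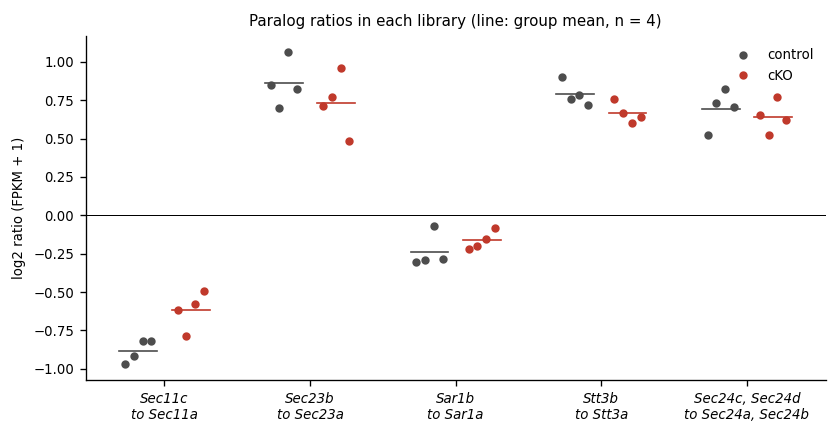
Log2 ratio of alternative subunits in each library (log2(FPKM + 1) differences; grey, control; red, cKO; lines are group means, n = 4). The Sec11c to Sec11a points of the groups are separate, and those of the other 4 ratios overlap.

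The promoters of the genes were read for letters that the ER stress factors Xbp1, Atf6 and the CREB3 family are known to bind, and for a few common promoter motifs. RefSeq promoter sequences (GRCm38.p6, 250 bases before to 50 after the start of the gene) matched 40 of the 49 genes. The ER stress element (ERSE, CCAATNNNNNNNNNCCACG) and the related ERSE-II (ATTGGNCCACG) were in the promoter of 0 members, against 0.137% and 0.0444% of all 27025 genes with a promoter sequence. TGACGTGG, searched like the others on both strands, was in 4 of 40, against 0.714% of all genes and 1.07% of the 10116 tested genes with a promoter sequence. All 4 are coat genes: Copb1 and Copb2 of COPI, and Sec23a and Sec24d of COPII. The shorter ACGTG, which lies within TGACGTGG, was in 24 of 40 (60%), against 21.8% of all genes and 28.8% of tested ones. By role, it was in 9 of 11 COPII, 5 of 6 COPI, 3 of 4 p24 and SNARE, 2 of 3 TRAP, 2 of 4 signal recognition particle, 2 of 4 Sec61, 1 of 3 signal peptidase and 0 of 5 oligosaccharyltransferase promoters. For comparison, TGACGTCA was in 1 member (Cope) and 3.58% of tested genes, CCGGAAG in 12 and 19.6%, CCAAT in 18 and 42.3%, and the NRF1 site in 0 and 2.19%. A match is a description of the letters, and binding was not measured here.

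The 30 bases around TGACGTGG in the 4 coat genes are shown because 2 COPII genes and 2 COPI genes hold it. The motif is in capitals, as TGACGTGG or, where it lies on the other strand, as CCACGTCA, and each sequence reads 5′ to 3′ on the strand of its gene.
Copb1: cccgcccccttCCACGTCAgccaaggactt
Copb2: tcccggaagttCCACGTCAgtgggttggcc
Sec23a: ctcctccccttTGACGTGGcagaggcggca
Sec24d: gcccgggcgccTGACGTGGcactagcaacc
The windows are chr7:114254690-114254719 (minus strand), chr9:98563713-98563742 (plus), chr12:59011993-59012022 (minus) and chr3:123267459-123267488 (plus) of GRCm38.p6. The motif begins 28, 7 and 26 bases before the start of Copb1, Copb2 and Sec24d, and 6 bases after that of Sec23a, counted from the RefSeq start. From the start in the deposited table, which differs for 3 of them, the motif begins 3, 3, 15 and 6 bases after the start of Copb1, Copb2, Sec24d and Sec23a. Their log2 fold changes were 0.12, 0.091, 0.047 and 0.17, within the range of the genes without the motif. Of the 10 genes with the smallest limma p, 7 had a promoter sequence, and ACGTG (capitals; CACGT on the other strand) was in Sec63, Tmed3 and Tmed10.
Sec63: tgctgcgcgcgcCACGTctccctcagtga
Tmed3: atttctccggagACGTGgcagacactaag
Tmed10: gcagaggcgcgtCACGTGggtgctcccggt
These lie at chr10:42761463-42761491 (plus strand), chr9:89705228-89705256 (minus) and chr12:85374711-85374740 (minus), where the match begins 21, 201 and 11 bases before the RefSeq start, and in Tmed10 the CACGTG palindrome matches on both strands. Tmed3 held a second match 31 bases after its RefSeq start, and Tmed10 one 177 bases before its own. From the start in the deposited table, the matches shown begin 21 bases before that of Sec63, 176 before that of Tmed3 and 119 after that of Tmed10. Stt3a, Srp72, Spcs2 and Srp9, which also had small p values, held no ACGTG in this window.

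Beyond the 49 genes, 131 other genes of the same route were listed, 127 of them tested. At an unadjusted limma p under 0.05, 28 were higher and 2 lower in the cKO libraries, against 8.85% and 7.53% of all genes tested, and 1, Xbp1, passed 0.05 after adjustment. Their median log2 fold change was 0.075. Xbp1, a transcription factor that drives ER expansion in secretory cells, measured 106, 106, 103 and 99.3 FPKM in the controls and 143, 143, 143 and 149 FPKM in the cKO libraries. It rose in all 4 cKO libraries (log2 fold change 0.48, SE 0.057, limma adjusted p = 0.0204 by Benjamini-Hochberg). With 1 library left out at a time, its limma adjusted p ran from 0.0369 to 0.0837 and passed 0.05 only without cKO replicate 1 or 3. The other 6 tested genes of the ER stress and CREB3 list had no unadjusted limma p under 0.05, and Atf6b had a log2 fold change of -0.11.

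Other genes of ER targeting and insertion were higher in 5 of 25 and lower in 0 at an unadjusted limma p under 0.05 (median log2 fold change 0.070). Over all genes tested, 8.85% were higher and 7.53% lower at that p. The smallest p values were those of Srp54c, one of several near-identical copies of the GTPase subunit gene of the signal recognition particle, among which reads could be split (4.50, 4.58, 4.83 and 5.12 FPKM in the controls, 6.74, 5.88, 6.48 and 7.53 FPKM in the cKO libraries, log2 fold change 0.41, limma adjusted p = 0.0568), and of Srpr, the alpha subunit of its receptor. The copies Srp54a and Srp54b had log2 fold changes of 0.10 and -0.14, neither with an unadjusted limma p under 0.05. Srpr measured 41.5, 42.4, 44.7 and 42.2 FPKM in the controls and 52.3, 49.9, 48.5 and 53.4 FPKM in the cKO libraries, without overlap (log2 fold change 0.25, limma adjusted p = 0.0817). Its partner Srprb, given above, had a log2 fold change of -0.012. Of 24 other N-glycosylation genes tested, 4 were higher and 1 lower; Alg14 and Dpagt1, which act early on the lipid-linked glycan, had log2 fold changes of 0.38 and 0.22 (limma adjusted p = 0.0722 and 0.155).

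Of 10 other COPII and ER exit genes, 2 were higher at an unadjusted limma p under 0.05. The shares of all genes tested, for this list and those that follow, were 8.85% higher and 7.53% lower. Sec16b, a second exit site scaffold, measured 0.928, 1.28, 1.45 and 1.37 FPKM in the controls and 3.14, 2.01, 1.82 and 2.996 FPKM in the cKO libraries, so that it stayed far below Sec16a in both groups. Its log2 fold change was 0.61 (limma adjusted p = 0.0892) on the log2(FPKM + 1) scale, which understates the change of a gene at so low a level, and that of Mia2, a cargo receptor of exit sites, was 0.20 (adjusted p = 0.129). Of 11 other COPI and Arf genes tested, 4 were higher, led by Arfgap3, a GTPase activator for Arf1 (11.3, 13.1, 13.9 and 12.7 FPKM in the controls, 21.7, 15.9, 16.2 and 22.7 FPKM in the cKO libraries, log2 fold change 0.54, limma adjusted p = 0.0837), and Gbf1, an Arf exchange factor (log2 fold change 0.20). Among 39 other cargo receptors, tethers and SNAREs tested, 11 were higher and 0 lower. Mcfd2, which works with the receptor Lman1, had a log2 fold change of 0.31 (limma adjusted p = 0.0568) and the Golgi stacking gene Gorasp1 one of 0.38 (adjusted p = 0.0717). The clathrin and AP-1 list, a coat of the later secretory route, had 1 of 11 higher (Ap1m2, log2 fold change 0.20) and 1 lower (Ap1s3, -0.31), near those shares.

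The call after adjustment changed with the fit for some of these named route genes. With the block by sets, Srp54c, Srpr, Alg14, Mcfd2 and Ap1m2 passed 0.05 (limma adjusted p = 0.0283, 0.0420, 0.0246, 0.0297 and 0.0420), where 1.79% of all genes were called higher. With limma-voom and the replicate block, Srp54c, Alg14, Sec16b, Arfgap3 and Mcfd2 passed (limma adjusted p = 0.0241, 0.0332, 0.0429, 0.0428 and 0.0251), where 2.67% of all genes were called higher. Srp54c, Alg14 and Mcfd2 also passed with the length trend removed and among protein-coding genes alone, Srp54c and Mcfd2 with limma-voom without a block, Srp54c among genes averaging 1 FPKM or more, and Gorasp1 among protein-coding genes alone.

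Genes that mark secretory output and other cells were read from the same libraries. The 10 milk genes, which include the caseins, Wap and Lalba, were higher in 9 of 10 at an unadjusted limma p under 0.05 and in 4 after adjustment, against 8.85% and 0.588% of all genes tested. Their summed levels were 4174 to 6038 FPKM in the control libraries and 9201 to 16315 FPKM in the cKO libraries. Among 8 myoepithelial markers, Trp63 and Krt14 were lower (log2 fold changes -0.42 and -0.39) and Oxtr higher (0.85) at an unadjusted limma p under 0.05. Of the 7 luminal markers, 3 had a higher and 4 a lower mean in the cKO group (median log2 fold change -0.0033), and only Elf5, an alveolar regulator, had an unadjusted limma p under 0.05 (0.82, higher). The 5 B and T lymphocyte markers summed to 3.05 to 23.3 FPKM in the control libraries and 1.78 to 2.72 FPKM in the cKO libraries. All 3 that were tested had a lower mean, Cd79a and Cd79b at an unadjusted limma p under 0.05 (log2 fold changes -1.38 and -0.98). Plasma cells, which also depend on this route, were followed by 5 genes whose sum was 44.6 to 659 FPKM in the control libraries and 53.1 to 107 FPKM in the cKO libraries, with control replicate 3 the highest. The 5 leukocyte markers summed to 692 to 841 FPKM in the control libraries and 697 to 779 FPKM in the cKO libraries, most of it Cd14, which averaged 729.0 and 726 FPKM. For Adgre1 and Csf1r, macrophage genes of that list, every cKO library lay below every control (log2 fold changes -0.41 and -0.28, limma adjusted p = 0.166 and 0.379). The 5 endothelial markers summed to 74.8 to 85.7 FPKM in the control libraries and 54.6 to 82.03 FPKM in the cKO libraries, and the 7 fibroblast markers to 446 to 927 FPKM in the control libraries and 304 to 722 FPKM in the cKO libraries. Every gene tested of these 3 lists had a lower mean in the cKO group, with an unadjusted limma p under 0.05 for Adgre1, Pecam1 and Emcn alone (log2 fold changes -0.41, -0.29 and -0.31). The 5 adipocyte markers summed to 77.5 to 119 FPKM in the control libraries and 98.4 to 129.9 FPKM in the cKO libraries, most of it Fabp4, which averaged 96.7 and 111 FPKM. Cidec, a lipid droplet gene of that list, measured 0.435, 0.342, 0.450 and 0.316 FPKM in the controls and 1.005, 1.63, 1.32 and 2.29 FPKM in the cKO libraries, and it rose without overlap (log2 fold change 0.86, limma adjusted p = 0.0377). Adipoq had a log2 fold change of 0.71 (limma adjusted p = 0.245). The part of these cells in the differences of the 49 genes was not tested.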

How the data were processed

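RNA from mammary epithelium of 4 control and 4 cKO mice was sequenced, 1 library per mouse. The authors aligned reads with Hisat2 (GRCm38) and deposited gene-level FPKM; the submitters' processing notes list featureCounts 1.5.0-p3 and StringTie 1.3.3b, and name mm9 as the build. Gene coordinates in the table are those of GRCm38. The deposited FPKM are whole reads (100% of values within 0.01 read) divided by gene length and a size factor. Libraries held 16123108 to 19896988 reads on genes, and each of the 49 genes had at least 545 reads in every library.

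Log2(FPKM + 1) was fitted for the 15143 genes averaging 0.5 FPKM or more with limma 3.58.1 in R 4.3.3 (empirical Bayes with trend, control against cKO, no covariates), with Benjamini-Hochberg adjustment over all genes. Paralog ratios were compared by exact permutation over libraries. FPKM in every library are given for the 10 members with the smallest p, the highest and lowest fold change of each role group and the paralogs; of the other route genes, those with an adjusted p under 0.05 or else the 2 smallest p of each list are named. The procedure was tested on simulated data. The 49 genes, the lists and the tests were chosen with earlier results of these data known. One marker of the lymphocyte list is not reported here, and the list's sum leaves it out. Alternatives were a pseudocount of 0.1, no filter or one at a mean of 1 FPKM, TPM with and without milk genes, blocks by replicate number or set, no trend, limma-voom on recovered reads, GC or length trends removed, protein-coding genes alone and each library left out. Python 3.11.15, pandas 2.3.3 and matplotlib 3.10.9 were used.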

Additional observations from a re-analysis of the deposited data

Results flagged for a closer look

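In 7 of 154 groups of 4 values tested, 1 library lay apart from the other 3 by more than Dixon's 95% critical value, and chance alone flags about 1 group in 20. Control replicate 2 was low for Sar1a, at 48.8 FPKM against 51.1 to 51.6 FPKM in the other controls. The same library was low for Sec61g, at 13.6 FPKM against 17.3 to 17.9 FPKM. For Sec23a, cKO replicate 3 had 7.65 FPKM against 8.66 to 8.87 FPKM in the other cKO libraries and lay inside the control range. The signal peptidase genes summed to 130.0 FPKM in cKO replicate 3, against 119 to 121 FPKM in the other cKO libraries. The log2 ratio of Sar1b to Sar1a was -0.069 in control replicate 3 and -0.30 to -0.28 in the other controls. Xbp1 measured 149 FPKM in cKO replicate 4 and 143 FPKM in each of the other cKO libraries, and Atf6b 18.2 FPKM in cKO replicate 1 against 16.4 to 16.6 FPKM.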

How the results depend on the processing

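No member was lower at an unadjusted limma p under 0.05 under any of the 23 alternatives, and none was called lower after adjustment. With TPM, the mean was higher for 37 of the 49 members, 6 were higher at an unadjusted p under 0.05 (5.20% of all genes), 3 had no overlap (3.51%) and the median log2 fold change was 0.0618; with the milk genes left out of the sum, 44 had a higher mean and 5 had no overlap (4.43%). TPM divides each library by its FPKM sum, which was 291204 to 325391 in the controls and 307456 to 348018 in the cKO libraries, and the median of all genes tested was then -0.048. With the milk genes left out of the sum it was -0.025. The share of all genes with a higher mean was not computed for any alternative. Of the members given by library, the direction turned with TPM for Sec62 (-0.00562), Ddost (-0.0417, and -0.0129 without the milk genes), Sec23b (-0.012), Sec24d (-0.0102) and Copg1 (-0.00937), and for Sec23b after removal of the GC trend (-0.00254, with or without the replicate block), where 45 members had a higher mean. Srp19 also turned in all of these, Srp68 in both TPM settings, and Rpn1, Rpn2 and Sec13 with TPM; the cause was not tested. With 1 library left out at a time, 43 to 48 members had a higher mean, 10 to 13 were higher at an unadjusted p under 0.05 (7.19% to 8.69% of all genes), 13 to 18 had no overlap (7.6% to 8.84% of all genes, as 3 libraries separate from 4 more easily), 0 passed the adjusted threshold and the median was 0.097 to 0.129. Over the same fits the log2 fold change ran from -0.0571 to 0.0285 for Srprb, from -0.0319 to 0.071 for Ddost and from -0.155 to -0.0165 for Tmed9. The ratio differences were 0.223 to 0.32 for Sec11c to Sec11a, -0.154 to -0.0866 for Stt3b to Stt3a, -0.204 to -0.0452 for Sec23b to Sec23a, 0.0459 to 0.13 for Sar1b to Sar1a and -0.109 to -0.0104 for Sec24c and Sec24d to Sec24a and Sec24b, and no ratio passed 0.05 after adjustment in any setting, which a single ratio could not do at these numbers of libraries.

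The labels do not say whether replicate numbers pair the mice, and the values did not show it. Same-numbered libraries deviated from their group means with correlations of 0.1371, 0.1096, 0.116 and 0.0797 over genes, against 0.0873 to 0.178 for differently numbered libraries of the same set. So few correlations cannot exclude a weak pairing. With the replicate block, 19 members were higher at an unadjusted limma p under 0.05 (11.1% of all genes) and 0 after adjustment. With limma-voom and the replicate block the counts were 20 and 6 (11.6% and 2.67% of all genes), and with the block by sets 20 and 3 (11.9% and 1.79%). Within pairs, the exact permutation p of the Sec11c to Sec11a ratio was 0.125, the smallest possible. The limma p-values set the group difference against the spread between 4 libraries a group, moderated over all genes tested. That spread holds differences between mice, their handling and the replicate sets, which were not separated. Each of the 49 genes had at least 545 reads in every library, and the part of counting error in the spread between mice was not computed.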
